A study of Mus musculus with 6 samples.

Results

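A set of 33 genes that mark the differentiation of monocytes and macrophages, among them Ly6c2, Adgre1, Lyz2 and 5 MS4A genes, was followed in leukaemic blasts with and without a Stat3β transgene. The members were a given list of symbols, chosen with earlier results of these data known. They were found by matching their symbols to the Entrez gene IDs of the deposited table. All 33 were among its 24454 gene IDs, and 31 passed the filter on low values. STAT3 is a transcription factor activated by cytokines, and its splice form STAT3β lacks the end of the transactivation domain. The question of the study was what this form does in acute myeloid leukaemia, modelled here with the oncogenic fusion MLL-AF9. The Stat3β TG group (n = 3) came from C57BL/6 mice with Mx1-Cre and a Stat3β transgene, and the WT group (n = 3) from their wild-type littermates. In both groups fetal liver cells were transformed with a retrovirus carrying MLL-AF9 and transplanted into NSG mice. NSG hosts lack mature lymphocytes but keep their own myeloid cells. At 4 weeks after transplantation the recipients received polyinosine-polycytidine (100 μL at 2 mg/mL), an interferon inducer that switches on the Mx1 promoter and with it Cre. Bone marrow was taken at 6 weeks from mice with leukaemia, the MLL-AF9+ blasts were sorted by their fluorescent reporter Venus, and their total RNA was sequenced. The ages and sexes of the mice, and whether WT cells carried Mx1-Cre, are not given in the labels.

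Monocytes arise in bone marrow from a granulocyte and monocyte progenitor. Classical monocytes carry the surface protein Ly6C and enter inflamed tissue, nonclassical monocytes lose Ly6C, depend on the nuclear receptor Nr4a1 and patrol vessels, and both can give rise to tissue macrophages, which carry F4/80 (Adgre1), CD68 and scavenger receptors. Blasts driven by MLL-AF9 resemble granulocyte and monocyte progenitors and can keep part of the monocyte programme.

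The libraries held between 21809788 and 51934498 reads recovered from the normalized counts. Stat3, which is the gene of the transgene but whose value sums both splice forms, was at 8034 to 11129 in Stat3β TG and 8058 to 16112 in WT, so the groups overlapped and the transgene could not be checked. WT 1 lay at -38.3 on the first principal component (47.4% of the variance), beside the Stat3β TG libraries at -31.4, -16.3 and -28.2, and the remaining WT libraries at 64.4 (WT 2) and 49.7 (WT 3). Xist, the RNA of the inactive X chromosome, and 4 Y-linked genes split the libraries differently. Xist stood at 71.6, 25.9 and 19.1 normalized counts in Stat3β TG 1 to 3 and at 42699, 835 and 45196 in WT 1 to 3, and the Y-linked genes summed to between 8781 and 9465 in Stat3β TG but to 58.8, 11012 and 71.8 in WT 1 to 3. WT 1 and WT 3 thus differ from the other 4 libraries in sex-linked genes, and the part of either split in the results below was not tested. Fold changes of the members that rest most on WT 1, or on WT 2 and WT 3, are given with and without those libraries. The same is done for the medians of the lineage, monocyte, macrophage, MS4A and immediate-early lists and of some cell type lists.

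Monocyte and macrophage genes were mostly higher in Stat3β TG blasts, but by less than the spread within groups allows to call. The mean log2 level was higher in Stat3β TG for 28 of the 33 genes, and the median of their log2 fold changes was 0.62. Over the 12642 genes tested, 51.4% were higher and the median was 0.01. The limma test, fitted over the whole table and adjusted by Benjamini-Hochberg (threshold 0.05), passed 0 of the 31 tested members, and 0% of all genes passed it. At an unadjusted p under 0.05, 10 members were higher, against a background of 3.56% of all genes, and 0 were lower, against 2.54%. On the recovered reads, edgeR also passed 0 members (8 at an unadjusted p under 0.05, all higher, against backgrounds of 2.58% higher and 3.57% lower). DESeq2 passed 0 members too (11 at an unadjusted p under 0.05, all higher, against 3.33% higher and 4.34% lower), while it passed 17 of all genes, or 0.134%. For Ms4a4c, DESeq2 gave a fold change but no p-value. The groups did not overlap in 5 members that were higher in Stat3β TG (background 5.87%) and in 1 that was lower (background 4.92%). The members were chosen with earlier results of these data known, so the excess over the background was partly open to that choice. Lyz1 and Mrc1 also had under 10 normalized counts in some WT libraries and passed the filter through the Stat3β TG group. These counts therefore describe the members and support nothing by themselves. In bulk samples such as these, fewer cells of a type and less RNA per cell cannot be told apart.

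**Figure D1:**
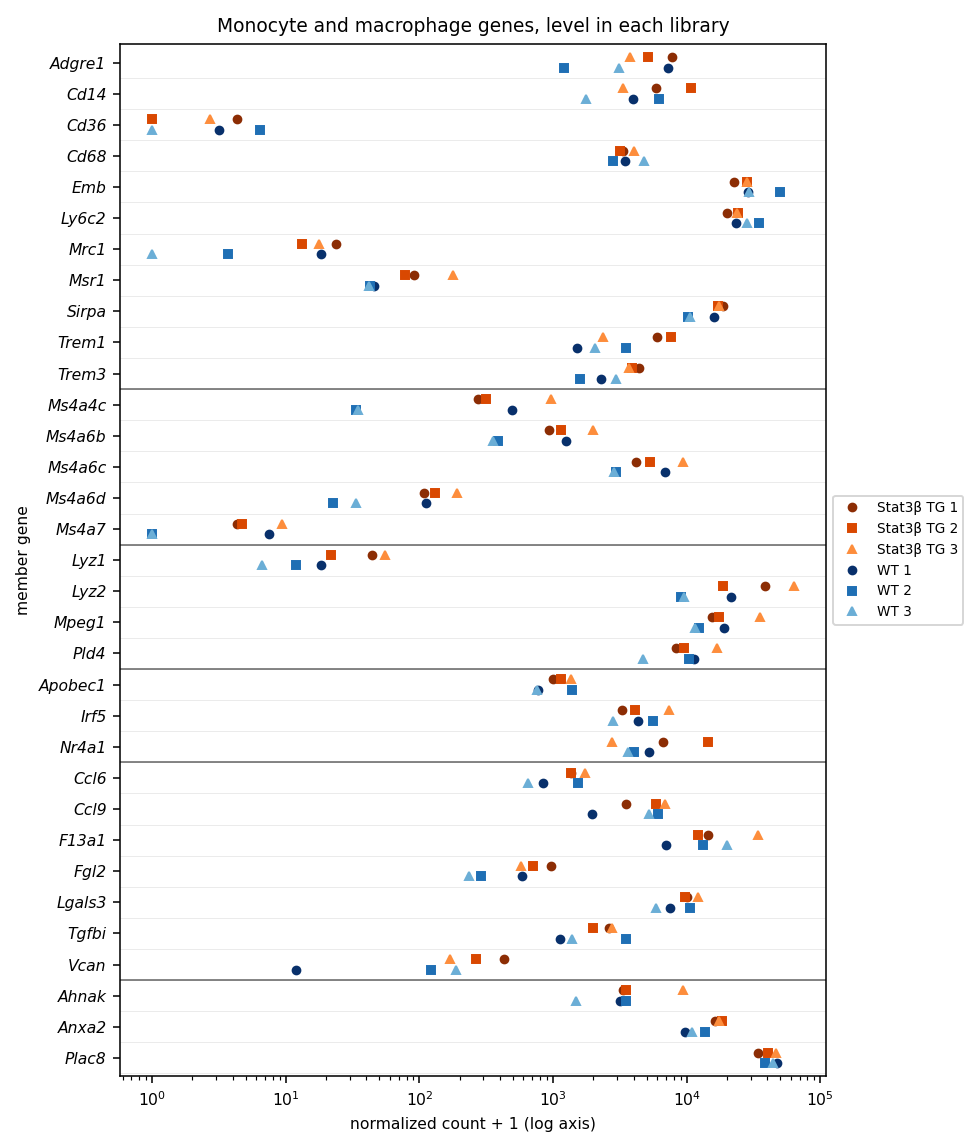
Normalized counts plus 1 (log axis) of the 33 genes in each library, grouped by role, with Stat3β TG libraries in orange above WT libraries in blue. In the MS4A rows WT 1 lies among the Stat3β TG libraries and WT 2 and WT 3 lie together at the low end; Cd36 and Ms4a7 stay under 10 in every library.

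Among surface receptors, the separation of the groups was clearest for Trem3, Msr1 and Sirpa. Trem3, a mouse relative of the amplifying receptor TREM-1 that signals through DAP12 (chromosome 17, 48247677 to 48258848, GRCm38), had normalized counts of 4418, 3872 and 3712 in Stat3β TG 1 to 3, against 2296, 1592 and 2973 in WT 1 to 3. Every Stat3β TG library was above every WT library, with means of 4001 ± 370.0 in Stat3β TG and 2287 ± 691 in WT (SD, n = 3 each) and a log2 fold change of 0.85 (standard error 0.23, limma adjusted p = 0.668). Its relative Trem1, which amplifies inflammatory signals in monocytes and neutrophils, stood at 5946, 7601 and 2347 in Stat3β TG 1 to 3, against 1504, 3530.4 and 2050.2 in WT 1 to 3. Stat3β TG 3 was below WT 2, so the groups overlapped for Trem1. Markers of neutrophils, which also express Trem1 and Trem3, were likewise higher in Stat3β TG, as given at the end.

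Msr1, the class A scavenger receptor that takes up modified lipoproteins, was low in all libraries, with normalized counts of 89.7, 76.3 and 176 in Stat3β TG 1 to 3, against 44.6, 42.0 and 40.8 in WT 1 to 3. The WT libraries lay within a few counts of each other, and all were below the Stat3β TG libraries. The log2 fold change was 1.31 (standard error 0.42, limma adjusted p = 0.668), with Stat3β TG 3 far above the other two. It was 1.34 without WT 1 and 1.24 without WT 2 and WT 3, so its size depended little on which WT libraries were used.

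Sirpa, the inhibitory receptor that reads CD47 on other cells, was at 18530.1, 16988 and 17282 in Stat3β TG 1 to 3, against 15904, 10168 and 10639.5 in WT 1 to 3. The groups did not overlap, but WT 1 lay close to the Stat3β TG libraries and apart from WT 2 and WT 3. Its log2 fold change of 0.55 (95% interval 0.10 to 1.01, limma adjusted p = 0.668) became 0.76 without WT 1 and 0.15 without WT 2 and WT 3. Adgre1, which encodes the macrophage antigen F4/80, had 7774, 5097 and 3771 in Stat3β TG 1 to 3, against 7186, 1206 and 3109.8 in WT 1 to 3. WT 1 was above 2 of the 3 Stat3β TG libraries and WT 2 was far below all others, so the log2 fold change of 0.82 turned to -0.44 without WT 2 and WT 3.

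Ly6c2, which encodes the Ly6C antigen of classical monocytes, went the other way. Its values were 19883, 23995 and 23599 in Stat3β TG 1 to 3, against 23431, 34497 and 28444 in WT 1 to 3, and its log2 fold change was -0.34 (95% interval -0.77 to 0.09, limma adjusted p = 0.668). WT 2 and WT 3 were above every Stat3β TG library and WT 1 was among them. Ly6c1 is a near-identical copy with at most 9.85 normalized counts in any library, so the split of reads between the pair is uncertain. Emb, an immunoglobulin-family partner of monocarboxylate transporters, was the 1 member with every Stat3β TG library below every WT library, at 22574, 28045 and 28129.8 in Stat3β TG 1 to 3, against 28897, 49454 and 29153 in WT 1 to 3. The gap between the nearest libraries, Stat3β TG 3 and WT 1, was small beside the spread within groups (log2 fold change -0.41, 95% interval -0.96 to 0.15, limma adjusted p = 0.668).

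The other surface genes overlapped between groups. Cd14, the coreceptor for lipopolysaccharide, stood at 5835, 10721 and 3348 in Stat3β TG 1 to 3, against 3938, 6185 and 1755 in WT 1 to 3. Stat3β TG 2 was the highest library, and WT 2 was above 2 of the 3 Stat3β TG libraries. Cd68, a lysosomal glycoprotein of macrophages, was at 3177 to 4022 in Stat3β TG and 2801 to 4817 in WT, with a log2 fold change of -0.04 (95% interval -0.54 to 0.46). Mrc1, the mannose receptor of mature macrophages, had 22.8, 12.3 and 16.9 in Stat3β TG 1 to 3, against 17.4, 2.71 and 0 in WT 1 to 3, where WT 1 lay within the Stat3β TG range. The log2 fold change of Mrc1 was 2.12 and became -0.05 without WT 2 and WT 3. Cd36, a receptor for fatty acids and oxidized lipoprotein, was not tested and had at most 5.41 normalized counts in any library. It had 0 reads in Stat3β TG 2 and WT 3, where up to 3.69 and 4.22 normalized counts could still go unseen (3 reads, for counting error only).

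The MS4A genes had the largest median log2 fold change of the 6 roles, 1.44 over the 4 tested members, while WT 1 stood with the Stat3β TG libraries in each of them. MS4A proteins cross the membrane 4 times, and those of the Ms4a4 and Ms4a6 branches are expressed in monocytes and macrophages. The 5 members lie within 284 kb of chromosome 19, from 11321039 to 11604804 (GRCm38), inside a cluster of 22 genes in the table. Ms4a4c had normalized counts of 274, 314 and 962 in Stat3β TG 1 to 3, against 494, 32.5 and 33.8 in WT 1 to 3. WT 1 was above Stat3β TG 1 and Stat3β TG 2, while WT 2 and WT 3 were far below every other library. The log2 fold change was 2.39 (standard error 1.04, limma adjusted p = 0.668), 3.68 without WT 1 and -0.18 without WT 2 and WT 3.

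A like order of libraries was seen in the other tested members. Ms4a6d was at 107, 131 and 189 in Stat3β TG 1 to 3, against 111, 21.7 and 32.4 in WT 1 to 3, and Ms4a6b was at 929, 1135 and 1991 in Stat3β TG 1 to 3, against 1245, 384 and 355 in WT 1 to 3. In both, WT 1 lay among the Stat3β TG libraries and above WT 2 and WT 3. The log2 fold change of Ms4a6d was 1.67 with all libraries, 2.34 without WT 1 and 0.31 without WT 2 and WT 3. For Ms4a6b it was 1.21, 1.79 and 0.04 in the same 3 sets. Ms4a6c had 4156, 5329 and 9444 in Stat3β TG 1 to 3, against 6819.6, 2961 and 2862 in WT 1 to 3, with a log2 fold change of 0.62 that became -0.20 without WT 2 and WT 3. Ms4a7, a marker of tissue macrophages, was not tested, with 3.35, 3.69 and 8.43 in Stat3β TG 1 to 3, against 6.53, 0 and 0 in WT 1 to 3, where the 0 values allow up to 4.06 in WT 2 and 4.22 in WT 3 (3 reads). Without WT 1, limma passed 5 members (background 1.8% of all genes for higher calls), and 3 of them were Ms4a4c, Ms4a6d and Ms4a6b, with adjusted p values of 0.041, 0.047 and 0.048. The other two were Fgl2 (adjusted p = 0.047) and Sirpa (adjusted p = 0.048), so all 5 calls were near the threshold of 0.05.

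Between the members lie genes with the same order of libraries and genes with another. Ms4a4b, a non-member between Ms4a4c and Ms4a6c, was at 116, 103 and 289.9 in Stat3β TG 1 to 3, against 202, 37.9 and 26.7 in WT 1 to 3, with WT 2 and WT 3 again below all others. Gm8369, a protein-coding gene between Ms4a6c and Ms4a6b, went the other way on average, at 9.37, 3.69 and 34.3 in Stat3β TG 1 to 3, against 17.4, 107 and 5.63 in WT 1 to 3, with WT 2 far above all others (log2 fold change -0.98, limma adjusted p = 0.775). Ms4a3, a marker of granulocyte and monocyte progenitors at the end of the cluster, had 7167, 7287 and 6941 in Stat3β TG 1 to 3, against 6931, 472 and 7845 in WT 1 to 3. There WT 2 alone was low, and WT 3 was the highest library. Ms4a8a was instead low in WT 1 alone, at 3.27 normalized counts, against 49.3 to 134 in the other libraries.

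**Figure D2:**
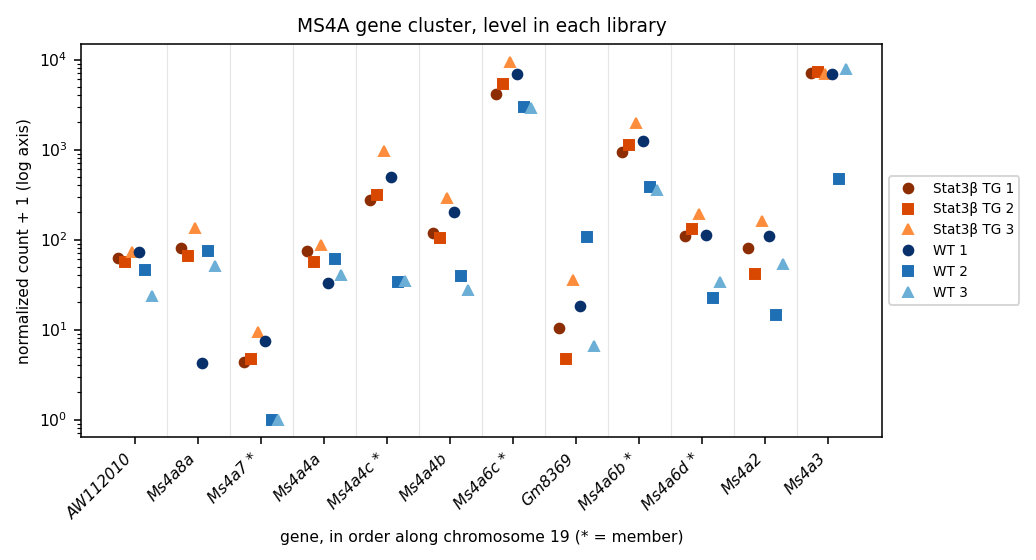
Normalized counts plus 1 (log axis) of the 12 MS4A-cluster genes that were tested or are members, in chromosomal order, with members starred, Stat3β TG libraries in orange left of WT libraries in blue. From Ms4a4c to Ms4a6d, apart from the gene Gm8369, WT 1 lies with the Stat3β TG libraries and WT 2 and WT 3 lie below; Ms4a3 is low in WT 2 alone.

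The promoters of MS4A members that varied together across the libraries are shown here because 2 of them are close copies. The sequences are the 250 bases before 1 RefSeq start per gene in GRCm38.p6, 5′ to 3′ on the gene's strand. Capitals mark AGGAAGT, the core that ETS factors such as PU.1 bind, on either strand.
Ms4a4c (chr19:11407411-11407660, plus strand): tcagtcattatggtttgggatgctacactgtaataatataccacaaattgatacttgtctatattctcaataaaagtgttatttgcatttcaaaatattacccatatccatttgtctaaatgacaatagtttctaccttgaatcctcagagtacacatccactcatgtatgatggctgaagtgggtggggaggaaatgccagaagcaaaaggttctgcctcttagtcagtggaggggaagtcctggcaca
Ms4a6c (chr19:11469118-11469367, plus strand): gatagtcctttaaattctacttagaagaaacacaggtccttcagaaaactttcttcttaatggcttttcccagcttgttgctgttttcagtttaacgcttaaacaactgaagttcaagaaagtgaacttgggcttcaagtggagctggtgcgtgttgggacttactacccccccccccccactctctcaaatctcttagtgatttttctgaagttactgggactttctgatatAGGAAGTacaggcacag
Ms4a6b (chr19:11518309-11518558, plus strand): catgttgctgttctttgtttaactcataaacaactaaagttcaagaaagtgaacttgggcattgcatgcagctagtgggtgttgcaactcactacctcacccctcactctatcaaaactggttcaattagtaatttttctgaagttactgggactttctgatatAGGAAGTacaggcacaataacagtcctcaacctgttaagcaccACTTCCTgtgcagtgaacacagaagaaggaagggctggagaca
Ms4a6b and Ms4a6c aligned over 180 columns with 148 identical bases, or 82.2%. Ms4a4c held no AGGAAGT in this window, and its best local alignment to either spanned 15 columns, with 13 identical bases. Its window lies inside the span of the gene (11404717 to 11427246), whereas those of Ms4a6b and Ms4a6c lie at the gene's start. The comparison is therefore of unlike positions, and no other start of Ms4a4c was searched. Of the 27 members with a promoter in the table, 8 held AGGAAGT, against 7.80% of all 27025 promoters of the same length. The 8 include Ms4a6b with Ms4a6c and Lyz1 with Lyz2, which are pairs of close copies and so not separate cases. Ms4a6d was not among the 27. The letters AGGAAGT were chosen after the first form searched, GAGGAAGT, was found in 1 member (Ly6c2, against 2.44% of promoters). The interferon response element was found in 1 member, Tgfbi, against 3.04% of promoters. All motifs were searched on both strands, and AGGAAGT lies within GAGGAAGT. Close copies such as Ms4a6b and Ms4a6c can also share or lose reads in counting, so their separate values are uncertain.

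Among the antimicrobial members the lysozyme genes had the largest differences. Lyz2, the lysozyme of monocytes, macrophages and neutrophils (chromosome 10, 117277541 to 117282272), had normalized counts of 38725, 18519 and 63549 in Stat3β TG 1 to 3, against 21411, 9053 and 9505 in WT 1 to 3. WT 1 was above Stat3β TG 2, so the groups overlapped, and Stat3β TG 3 was the highest. Means were 40264 ± 22554 in Stat3β TG and 13323 ± 7008 in WT (SD, n = 3 each), with a log2 fold change of 1.54 (standard error 0.49, limma adjusted p = 0.668), 1.94 without WT 1 and 0.74 without WT 2 and WT 3. Lyz1, the lysozyme of Paneth cells in the intestine, lies next to it and was at 42.8, 20.9 and 54.5 in Stat3β TG 1 to 3, against 17.4, 10.8 and 5.63 in WT 1 to 3. Its groups did not overlap, but its libraries stood in nearly the same order as those of Lyz2, and reads of the pair can be assigned to either gene. The promoters of the pair are shown for their likeness, with the same marking.
Lyz2 (chr10:117282273-117282522, minus strand): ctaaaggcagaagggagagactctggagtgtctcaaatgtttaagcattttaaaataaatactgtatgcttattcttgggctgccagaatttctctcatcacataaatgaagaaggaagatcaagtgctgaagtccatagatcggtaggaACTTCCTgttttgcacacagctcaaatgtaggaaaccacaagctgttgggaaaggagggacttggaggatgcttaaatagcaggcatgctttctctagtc
Lyz1 (chr10:117292869-117293118, minus strand): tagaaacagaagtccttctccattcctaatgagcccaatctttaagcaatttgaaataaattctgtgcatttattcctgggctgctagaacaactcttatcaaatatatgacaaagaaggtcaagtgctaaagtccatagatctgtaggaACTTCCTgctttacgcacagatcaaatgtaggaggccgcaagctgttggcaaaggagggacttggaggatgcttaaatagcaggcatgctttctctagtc
They aligned over 215 columns with 185 identical bases, or 86.0%, and both hold the marked core from 100 to 94 bases before the start.

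Mpeg1 and Pld4 had smaller differences. Mpeg1, whose product perforin-2 makes pores in engulfed bacteria, was at 15381, 17468 and 35095 in Stat3β TG 1 to 3, against 19042, 12256 and 11466 in WT 1 to 3. Stat3β TG 3 stood apart at the top, WT 1 was above the other two Stat3β TG libraries, and WT 2 and WT 3 were lowest. Pld4, an endolysosomal nuclease that degrades single-stranded nucleic acids, had 8296, 9578 and 16724 in Stat3β TG 1 to 3, against 11337, 10319 and 4734 in WT 1 to 3. WT 3 alone was below the Stat3β TG range, and the log2 fold change of 0.42 became -0.04 without WT 2 and WT 3.

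None of the 3 regulators separated the groups. Nr4a1, the nuclear receptor on which nonclassical monocytes depend and an immediate-early gene, had normalized counts of 6654, 14448 and 2766 in Stat3β TG 1 to 3, against 5228, 4006 and 3653 in WT 1 to 3. Stat3β TG 2 was the highest library and Stat3β TG 3 the lowest of all, with the WT libraries between them. Among 17 other immediate-early genes, the summed level was likewise highest in Stat3β TG 2, at 516919, and lowest in Stat3β TG 3, at 153726, and it was 262540, 417861 and 259018 in WT 1 to 3. The part of this in the values of Nr4a1 was not tested. Irf5, a transcription factor downstream of Toll-like receptors, was at 3249 to 7421 in Stat3β TG and 2793 to 5623 in WT (log2 fold change 0.18, standard error 0.35). Apobec1, a cytidine deaminase that edits RNA in macrophages, was at 992 to 1358 in Stat3β TG and 759.9 to 1378 in WT, where WT 2 was highest and WT 1 and WT 3 were below every Stat3β TG library.

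Secreted proteins were all higher on average in Stat3β TG, 7 of 7, at a median log2 difference of 0.57, and limma passed 0. Fgl2, a fibrinogen-like protein with a membrane-bound prothrombinase form, had normalized counts of 956, 703 and 577 in Stat3β TG 1 to 3, against 587, 289.7 and 234 in WT 1 to 3. WT 1 was just above Stat3β TG 3, while WT 2 and WT 3 were lower. The log2 fold change was 1.09 (95% interval 0.24 to 1.95, limma adjusted p = 0.668), 1.48 without WT 1 and 0.31 without WT 2 and WT 3. Its promoter is shown because it held the STAT letters TTCNNNGAA, as did that of Trem1. These were 2 of the 27 members with a promoter to search, a share near the 7.18% of all promoters. Here the capitals mark those letters, from 36 to 28 bases before the start.
Fgl2 (chr5:21372423-21372672, plus strand): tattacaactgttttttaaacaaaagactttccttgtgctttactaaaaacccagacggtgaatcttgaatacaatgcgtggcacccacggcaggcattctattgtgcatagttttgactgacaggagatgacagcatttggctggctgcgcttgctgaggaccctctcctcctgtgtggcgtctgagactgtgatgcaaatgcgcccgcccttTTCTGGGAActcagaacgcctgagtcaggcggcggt
A match of this kind is a description of the letters and says nothing of binding.

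Vcan, F13a1, Ccl9 and Tgfbi were lowest in WT 1, an order unlike that of the MS4A genes. Vcan, the proteoglycan versican of classical monocytes, was at 432, 262 and 169 in Stat3β TG 1 to 3, against 10.9, 120.5 and 186 in WT 1 to 3. WT 3 was just above Stat3β TG 3, and WT 1 was more than an order of magnitude below every other library. Its log2 fold change of 2.05 (standard error 0.97, limma adjusted p = 0.668) was 0.83 without WT 1 and 4.50 without WT 2 and WT 3. F13a1, the coagulation factor XIII subunit made by monocytes, stood at 14526, 12182 and 33874 in Stat3β TG 1 to 3, against 6975, 13193 and 20074 in WT 1 to 3, with Stat3β TG 3 highest and WT 3 above the other two Stat3β TG libraries. Ccl9, a chemokine, had 3530.4, 5865 and 6924 in Stat3β TG 1 to 3, against 1941, 6120.0 and 5201 in WT 1 to 3. WT 2 and WT 3 were inside the range of Stat3β TG, and the log2 fold change of 0.40 became -0.11 without WT 1. Tgfbi, an adhesion protein of the extracellular matrix induced by TGF-β, was at 1974 to 2779 in Stat3β TG and 1125 to 3488 in WT, with WT 2 the highest of all.

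Ccl6 and Lgals3 shared another order. Ccl6, a chemokine whose gene is a neighbour of Ccl9 on chromosome 11, was at 1370.0, 1367 and 1726 in Stat3β TG 1 to 3, against 846, 1538 and 647 in WT 1 to 3. WT 2 was within the Stat3β TG range, and WT 1 and WT 3 were below it. Lgals3, which encodes the β-galactoside-binding lectin galectin-3, was at 10105, 9779 and 12075 in Stat3β TG 1 to 3, against 7459, 10564 and 5875 in WT 1 to 3. Again WT 2 lay among the Stat3β TG libraries and WT 1 and WT 3 did not. Ahnak and Trem1 likewise had WT 2 within the Stat3β TG range and WT 1 and WT 3 below it. Apobec1 and Tgfbi also had WT 1 and WT 3 below that range, but WT 2 above it. The share of all genes with such an order was not counted. WT 1 and WT 3 are the libraries with high Xist and low Y-linked genes, and the part of that split in these values was not tested.

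Anxa2 separated the groups among the intracellular members. Anxa2, a calcium-dependent membrane-binding protein (chromosome 9, 69453683 to 69491792), had normalized counts of 16217, 18303 and 17554 in Stat3β TG 1 to 3, against 9677, 13772 and 10945 in WT 1 to 3. Every Stat3β TG library was above every WT library, with means of 17358 ± 1057 in Stat3β TG and 11465 ± 2097 in WT (SD, n = 3 each). The log2 fold change was 0.61 (standard error 0.17, limma adjusted p = 0.668), 0.50 without WT 1 and 0.84 without WT 2 and WT 3. Ahnak, a giant scaffold that binds annexin 2 and S100A10, was at 3320.2, 3483 and 9295 in Stat3β TG 1 to 3, against 3157, 3522 and 1476 in WT 1 to 3. Stat3β TG 3 was far above every other library, WT 2 was above the other two Stat3β TG libraries, and the groups overlapped. Plac8, a cysteine-rich protein of myeloid cells, was at 34145 to 46299.6 in Stat3β TG and 38489 to 47140.0 in WT (log2 fold change -0.11, 95% interval -0.52 to 0.31).

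**Figure D3:**
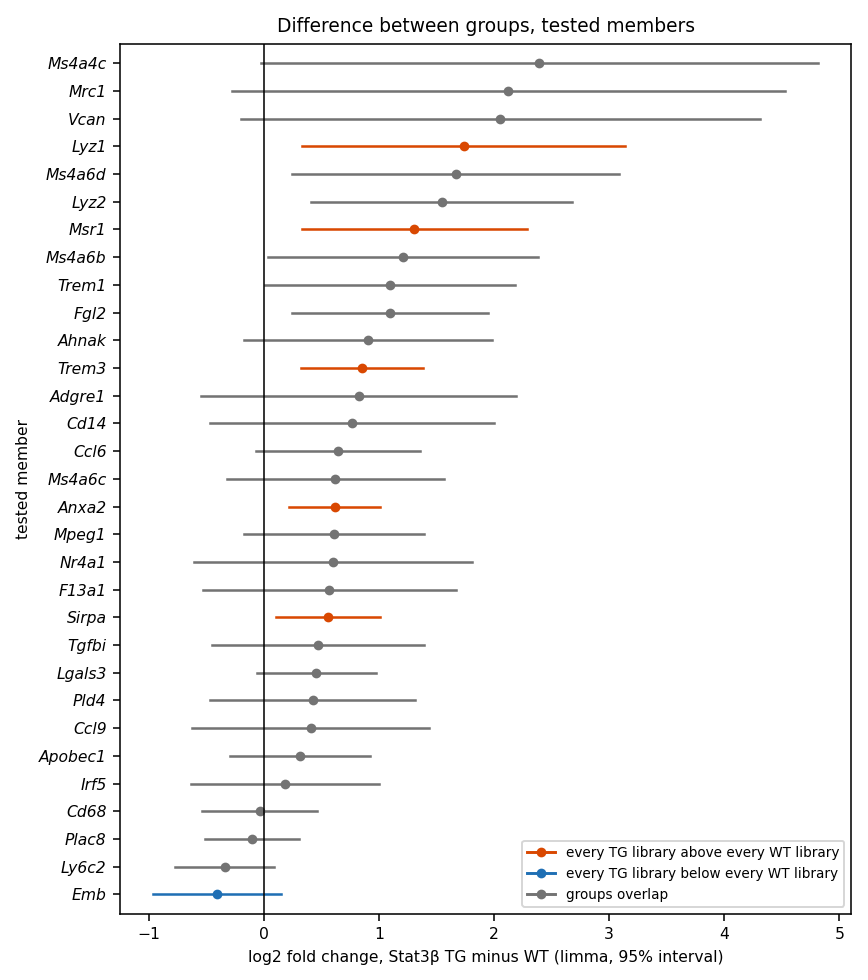
Log2 fold changes (Stat3β TG minus WT) with 95% intervals from limma for the 31 tested members, coloured by whether the groups overlapped. Trem3, Anxa2, Sirpa, Msr1 and Lyz1 are the 5 members with every Stat3β TG library above every WT library, and Emb the 1 below; intervals of MS4A genes, Mrc1 and Vcan are wide.

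The members did not vary as 1 block across the libraries. Stat3β TG 3 was the highest library in 15 of the 31 tested members, or 48.4%, against 17.3% of all genes tested. It was highest in Lyz2, Lyz1, Irf5, Mpeg1, Pld4, F13a1, Ahnak, Msr1, Lgals3, both chemokine genes and the 4 tested MS4A genes. Stat3β TG 2 was highest in Cd14, Nr4a1, Trem1 and Anxa2, and Stat3β TG 1 in Adgre1, Mrc1, Fgl2, Vcan, Sirpa and Trem3. WT 3 was the lowest library in 14 members, or 45.2%, against 18.9% of all genes. WT 2 and WT 3 were below WT 1 and below every Stat3β TG library in 12 members, or 38.7%, against 21.9% of all genes, and these included the 4 tested MS4A genes, both lysozymes, Mpeg1, Adgre1, Mrc1, Fgl2, Msr1 and Sirpa. WT 1 lay within the Stat3β TG range in 15 members (48.4%), against 55.7% of all genes.

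Role by role, the median log2 level relative to each gene's mean over the 6 libraries showed the same division. For the 4 tested MS4A genes it was 0.30, 0.58 and 1.26 in Stat3β TG 1 to 3, against 0.54, -1.46 and -1.24 in WT 1 to 3. For the 7 secreted proteins it was 0.21, 0.21 and 0.43 in Stat3β TG 1 to 3, against -0.87, 0.22 and -0.58 in WT 1 to 3. Thus WT 1 was the high WT library in the first role and the low one in the second. Over all 31 tested members it was 0.21, 0.18 and 0.43 in Stat3β TG 1 to 3, against -0.06, -0.18 and -0.62 in WT 1 to 3, so that every Stat3β TG library was above every WT library.

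**Figure D4:**
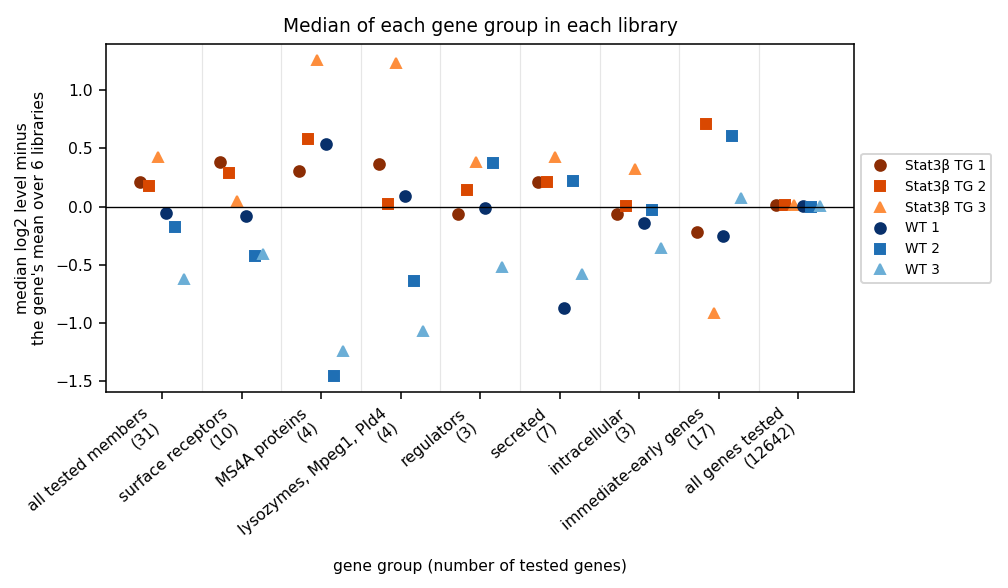
Median, over the tested genes of each role, of the log2 level minus the gene's mean over the 6 libraries, with Stat3β TG libraries in orange left of WT libraries in blue; the immediate-early genes and all genes tested stand beside them. WT 1 is high among WT libraries for MS4A genes and low for secreted proteins, and Stat3β TG 2 and Stat3β TG 3 are far apart for immediate-early genes.

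Leaving out WT libraries changed the size of the shift and, for some members, its direction. The median log2 fold change of the tested members was 0.81 without WT 1 and 0.31 without WT 2 and WT 3, where the lone WT library is assumed to vary like the Stat3β TG group. Without WT 1 limma passed 5 of the 31 members, while 2.74% of all genes passed in either direction. Without WT 2 it passed 0 members and 0.0396% of all genes. Without WT 2 and WT 3 limma passed 0 members, Adgre1, Mrc1, Ms4a6c, Ms4a4c and Pld4 were lower rather than higher, and Cd68 was higher rather than lower, at 0.03. In Lyz1, Lyz2, Msr1, Trem1, Trem3, Vcan, Ahnak, Anxa2, Ccl6, Cd14 and Lgals3 the log2 fold change was at least 0.43 in all 3 sets of libraries.

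**Figure D5:**
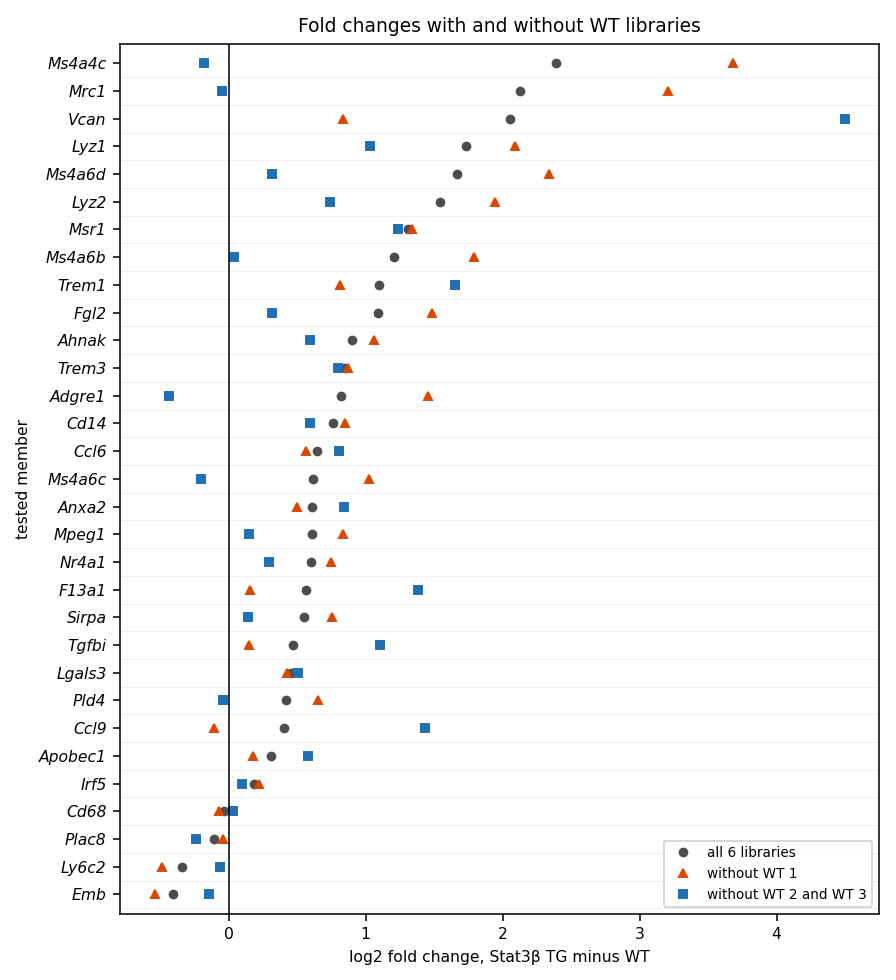
Log2 fold changes (Stat3β TG minus WT) of the 31 tested members with all 6 libraries, without WT 1, and without WT 2 and WT 3. The MS4A genes, Mrc1 and Adgre1 lie far to the right without WT 1 and at no more than 0.31 without WT 2 and WT 3, and Vcan, F13a1, Tgfbi and Ccl9 go the other way.

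Regulators of the lineage outside the members did not share 1 direction. Of 25 growth factors, receptors and transcription factors, 21 were tested, 13 were higher and 8 lower. Among them limma passed 0 (1 at an unadjusted p under 0.05 in each direction, against 3.56% of all genes higher and 2.54% lower). edgeR and DESeq2 also passed 0 of these, as of the monocyte, macrophage and MS4A lists that follow. Csf1r, the receptor for the growth factor M-CSF, was at 6827, 5269.8 and 10699 in Stat3β TG 1 to 3, against 7798, 3032 and 3854 in WT 1 to 3. WT 1 was above 2 of the 3 Stat3β TG libraries, as for Ms4a4c, and its log2 fold change of 0.69 was 1.09 without WT 1 and -0.10 without WT 2 and WT 3. The median of the 21 regulators was 0.17 with all libraries, 0.22 without WT 1 and 0.06 without WT 2 and WT 3. Csf2ra, the α chain of the GM-CSF receptor, was at 22385 to 25129 in Stat3β TG and 12291 to 19294 in WT, with no overlap. Runx1, a regulator of blood stem and progenitor cells, was at 2171 to 4850.2 in Stat3β TG and 1485 to 2806 in WT.

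Genes of both monocyte classes were mostly higher in Stat3β TG. Of 19 tested genes of classical monocytes 17 were higher, and their median log2 fold change was 0.20. Among them limma passed 0 (3 at an unadjusted p under 0.05, all higher, against 3.56% of all genes). Cybb, the catalytic subunit of the phagocyte oxidase, did not overlap between the groups, at 17578 to 29969 in Stat3β TG and 8297 to 17018 in WT. Chil3, a chitinase-like protein of monocytes and neutrophils, was at 171429 to 366721 in Stat3β TG and 56955 to 195143 in WT, and S100a6, a calcium-binding protein, at 2212 to 3697 in Stat3β TG and 678 to 2958 in WT. Of 17 tested genes of nonclassical monocytes 15 were higher, with a median of 0.96. Among them limma passed 0 (4 at an unadjusted p under 0.05, all higher, against 3.56% of all genes). The integrin gene Itgax stood at 313, 143 and 454 in Stat3β TG 1 to 3, against 126, 65.0 and 95.7 in WT 1 to 3, and the C-type lectin Clec4a1 was at 418, 395 and 1068 in Stat3β TG 1 to 3, against 345, 111 and 87.2 in WT 1 to 3. The groups did not overlap in these or in Clec4a3, at 376 to 816 in Stat3β TG and 89.3 to 371 in WT, though WT 1 was nearer to Stat3β TG than WT 2 and WT 3 were. Without WT 1, limma passed Clec4a1 (log2 fold change 2.499, adjusted p = 0.048), Clec4a3 (2.43, adjusted p = 0.039) and Stap1, against 2.74% of all genes in either direction. Stap1 was named for this call after its value was seen. The log2 fold changes of Clec4a1 and Clec4a3 were 1.90 and 1.77 with all libraries, and 0.70 and 0.47 without WT 2 and WT 3. The median of the nonclassical genes was 1.42 without WT 1 and 0.30 without WT 2 and WT 3, and that of the classical genes 0.47 and 0.10 in the same sets. Ace, the angiotensin-converting enzyme carried by patrolling monocytes, was at 34.5 to 132 in Stat3β TG and 14.9 to 38.0 in WT.

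Several defining genes of mature tissue macrophages were at or near 0, while others of the list were abundant. Of 23 macrophage genes, 8 did not pass the filter, among them C1qa and C1qc, which encode complement C1q chains. Vcam1, an adhesion molecule, was at 564 to 4149 in Stat3β TG and 188 to 2672 in WT, and Gpnmb, a lysosomal glycoprotein, at 1629 to 2139 in Stat3β TG and 426 to 1741 in WT, both picked after their values were seen, as was C1qa. C1qa was at 7.39 to 52.9 in Stat3β TG and 0 to 8.71 in WT, and the Kupffer cell lectin Clec4f was at 0 in all 6 libraries. Of the 15 tested, 11 were higher, and the median log2 difference was 0.70 (0.43 without WT 1 and 0.11 without WT 2 and WT 3). Among them limma passed 0 (1 at an unadjusted p under 0.05 in each direction, against 3.56% of all genes higher and 2.54% lower). Hmox1, the haem-degrading enzyme, was at 1001 to 1296 in Stat3β TG and 730.3 to 896 in WT without overlap. Cd163, the scavenger receptor for haemoglobin, was at 30.8, 57.9 and 243 in Stat3β TG 1 to 3, against 178, 294 and 335 in WT 1 to 3, Mertk, a receptor for dying cells, at 2.81 to 13.4 in Stat3β TG and 7.62 to 69.0 in WT, and Lyve1, a hyaluronan receptor, at 8.99 to 24.8 in Stat3β TG and 0 to 19.6 in WT. Only Stat3β TG 3 overlapped with WT for Cd163, and the other two genes overlapped.

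Relatives and immediate-early genes completed the lists. All 7 tested genes of a list of MS4A relatives, which did not hold Gm8369, were higher on average, at a median log2 difference of 0.89 (1.02 without WT 1 and 0.24, with 5 of 7 higher, without WT 2 and WT 3), and limma passed 0 (0 at an unadjusted p under 0.05). Of these, Ms4a4a was at 55.4 to 86.0 in Stat3β TG and 31.6 to 59.6 in WT. Of 17 immediate-early genes 11 were lower, with a median of -0.28 (-0.35 without WT 1 and 0.14 without WT 2 and WT 3). Among them 0 passed by limma or edgeR, while DESeq2 passed 1, Egr2, which was lower. At an unadjusted p under 0.05, 2 were lower by each of limma and edgeR, against 2.54% and 3.57% of all genes. Egr1 and Egr2 encode zinc finger factors that take part in macrophage differentiation, and in both every Stat3β TG library was below every WT library. Egr1 was at 8754, 13407 and 2123 in Stat3β TG 1 to 3, against 19425, 30696 and 18341 in WT 1 to 3, and Egr2 at 48.9, 87.4 and 42.1 in Stat3β TG 1 to 3, against 244, 180.0 and 249 in WT 1 to 3 (log2 fold change -1.95, limma adjusted p = 0.668). Neither Egr3, a relative, nor Atf3, a stress-induced factor, separated the groups, with Egr3 at 18.7 to 45.6 in Stat3β TG and 28.3 to 94.3 in WT and Atf3 at 941 to 1688 in Stat3β TG and 119.6 to 1302 in WT.

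Markers of other cell types differed between the groups to unequal extents. The 16 neutrophil markers, led by Ngp, S100a9 and S100a8, summed to 404295 to 598092 normalized counts in Stat3β TG and to 118765 to 391039 in WT, without overlap. Of these 16, 15 were higher. At an unadjusted limma p under 0.05, 8 were higher, against 3.56% of all genes, and 7 were higher without overlap, against 5.87%. Of the 16, limma and edgeR passed 0 and DESeq2 passed 1, Cd177. Their median log2 fold change of 0.99 was above the members' 0.62, and it was 1.18 without WT 1 and 0.43 without WT 2 and WT 3. Without WT 1 limma passed 4 of the 16, against 2.74% of all genes in either direction. Since Lyz2, Trem1, Trem3 and Cybb are also neutrophil genes, these sums stand beside their values, and the part of neutrophil-like cells was not tested. The 17 markers of eosinophils, basophils and mast cells, led by Prg2, Gata2 and Kit, summed to 13535 to 20101 in Stat3β TG and to 16913 to 59057 in WT. Of the 11 tested, 5 were higher and 6 lower. Their median log2 fold change was -0.37 with all libraries, 0.16 without WT 1 and -0.91 without WT 2 and WT 3. Prg2 was at 4024 to 7055 in Stat3β TG and 8375 to 36893 in WT, without overlap. DESeq2 passed Prg2 (log2 fold change -2.28, DESeq2 adjusted p = 0.0018), while limma and edgeR did not. Gata2 was also lower without overlap, and Kit overlapped. The 15 dendritic cell markers, led by Tcf4, Flt3 and Bst2, summed to 11475 to 17687 in Stat3β TG and to 6820 to 28446 in WT. Erythroid markers summed to 3811 to 4634 in Stat3β TG and to 4714 to 5879 in WT, carried by the transferrin receptor gene Tfrc with the 4 globin genes at 0. Alas2, another marker of this list, was at 25.9 to 56.2 in Stat3β TG and 12.7 to 149 in WT. The globin values thus do not show a lack of erythroid RNA, and why they were 0 was not tested. Megakaryocyte markers, led by Itgb3 and Itga2b, summed to 3177 to 4273 in Stat3β TG and to 1551 to 4252 in WT. Of the 6 tested, 5 were higher, at a median log2 fold change of 0.65, just above that of the members. This median was 0.85 without WT 1 and 0.20 without WT 2 and WT 3. T and NK cell markers, led by Nkg7, summed to 1178 to 1662 in Stat3β TG and to 409 to 2202 in WT, with Cd3e at 0. All 10 tested T and NK cell markers were higher on average, at a median log2 fold change of 1.17, also above that of the members. Among them limma, edgeR and DESeq2 passed 0 (1 at an unadjusted limma p under 0.05, against 3.56% of all genes higher). The median was 1.99 without WT 1 and -0.32, with 2 of 10 higher, without WT 2 and WT 3, and its part in the members' values was not tested. B cell markers, carried by Cd79b, summed to 1250.2 to 2367 in Stat3β TG and to 1267 to 1890.5 in WT, and stroma markers, carried by Pecam1 and Pdgfrb, to 5828 to 7218 in Stat3β TG and to 7409.5 to 9259 in WT.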

How the data were processed

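Gene-level values of 6 libraries of sorted blasts were used. The deposited values are a signal of gene counts that the authors divided by size factors, per the submitters' processing notes, which name FastQC, STAR, DESeq2 and the GRCm38 (mm10) build. Their versions and the counting settings were not given in the sources used here. Dividing each library by the worth of 1 read gave whole numbers for 100% of 146724 values within 0.001. Genes with at least 10 normalized counts in at least 3 libraries (12642) were tested with limma 3.58.1 (R 4.3.3, trend, robust) on log2(value + 1). All p-values were adjusted by Benjamini-Hochberg over these genes. The added 1 makes changes of low genes smaller, but limma fold changes can exceed those of edgeR and DESeq2. By limma, edgeR and DESeq2 in turn, the log2 fold change was 2.12, 1.29 and 1.34 for Mrc1 and 2.39, 1.45 and 1.46 for Ms4a4c. For Nr4a1 the limma value was the smaller, at 0.60, 0.88 and 0.88. The members' median was 0.62, 0.59 and 0.59. edgeR 4.0.16 and DESeq2 1.42.0 on the recovered reads, other pseudocounts, filters and scalings, a replicate block and the leaving out of libraries were alternatives. The pipeline was tested on simulated data. The 33 members, the other lists and the libraries left out together were chosen with earlier results of these data known. All members are named; of each other list up to 4 tested genes with the smallest limma p; of each cell type list up to 3 with the highest mean. Of those, 2 genes are not reported here. The labels do not say that libraries came from separate donors, so p-values measure the spread between these samples.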

Additional observations from a re-analysis of the deposited data

How the results depend on the processing

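limma passed 0 members with all libraries under each pseudocount, filter and scaling tried, and edgeR, DESeq2 and the fit with a replicate block also passed 0. Over all genes DESeq2 passed 17. The labels do not say that replicate numbers pair the libraries, so the numbers were not taken to pair them. Log2 deviations from the group mean were correlated between Stat3β TG and WT libraries. Same-numbered libraries correlated at 0.141, 0.0995 and -0.107 in these deviations, and differently numbered ones at -0.202 to 0.143. The replicate block gave 0 genes called, 0 members and a median log2 fold change of 0.62. Leaving out 1 library at a time, between 0 and 346 genes and between 0 and 5 members passed, all 5 without WT 1, and 5 genes passed without WT 2. The members' median was 0.51 to 0.81. Without WT 2 and WT 3 together, 9 genes passed and the median was 0.31. Over 15 settings 20 members were always higher, 2 always lower and 9 changed sign. Without WT 2 and WT 3, Adgre1 was at -0.44, Mrc1 at -0.048, Ms4a6c at -0.20, Ms4a4c at -0.18, Pld4 at -0.044 and Cd68 at 0.030. Leaving out 1 library, log2 fold changes ranged from -0.16 to 0.44 for Irf5, -0.22 to 0.18 for Cd68, -0.11 to 0.72 for Ccl9 and -0.21 to 0.0090 for Plac8. The cause of these changes was not tested. Low members such as Mrc1, Cd36 and Ms4a7 are limited by depth, 1 read being worth up to 1.41 normalized counts.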
